A study of Papio hamadryas with 12 samples.

Results

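The isoform-specific targets of an Illumina bead array were examined in frontal cortex RNA of 12 baboon fetuses (Papio hamadryas). An identifier that starts with GI_ and ends in -I marks, in Illumina's naming, a probe that matches 1 transcript isoform of a gene and not the others. Of the 47296 rows of the array, 2914 were of this class, and 328 of them had a detection p under 0.01 on all 12 arrays. These 328 targets, chosen by their measured detection, are called the members here. Identifiers that end in -S, which stand for genes with 1 known transcript, were taken under the same rule as a background, 5481 of 21002 rows. Identifiers that end in -A stand for probes shared by all known isoforms of a gene.

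The fetuses were studied near term, at 165 days of gestation. The mothers of 6 fetuses (3 male, 3 female) had been nutrient restricted in pregnancy, and the mothers of the other 6 (3 male, 3 female) were controls. Each fetus gave total RNA for 1 array, so n is the number of animals, and precision is limited by how few arrays there were. The labels do not state the degree or timing of the restriction, nor the species for which the array was made. No probe sequences were given, so whether a probe matches baboon transcripts, or only 1 isoform of them, could not be checked. The array numbers run with the condition, all controls before all nutrient restricted animals, so that array order and condition cannot be told apart. Gene names are not paired with the identifiers in the files, so each target is named by its identifier, no role can be stated for a member, and the labelled tissue could not be checked against marker genes.

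Most genes of the mammalian brain give rise to several transcripts through alternative splicing, alternative promoters and alternative 3′ ends. The isoforms of 1 gene can code for different proteins or differ only in untranslated sequence, and their proportions shift as the cortex matures. A probe placed in sequence that 1 isoform alone carries is meant to report that isoform, whereas a probe in shared sequence is meant to report the sum.

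The array of control 1 was the dimmest. The median scanner signal of the members, an average bead intensity on a linear scale, was 361 on that array. On the other 5 control arrays it lay between 501 and 640, and on the 6 nutrient restricted arrays between 513 and 676. The median signal over all rows was 73.8 to 113.6 in the nutrient restricted group and 63.5 to 98.6 in the control group, with the lowest value again on control 1.

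A smaller share of the isoform-specific rows than of the -S and -A rows was detected. Rows outside these classes were not compared as classes. Over all rows, with repeated identifiers reduced to 1 row, 6933 of 47289 targets were detected on all 12 arrays. The share detected on all 12 arrays was 11.3% of the -I rows, against 26.1% of the -S rows and 36.6% of the -A rows. Conversely, 2266 -I rows (77.8%) were detected on no array, against 61.1% of the -S rows and 47.8% of the -A rows. The remaining 320 -I rows (11%) were detected on 1 to 11 arrays, 53 of them on exactly 11. Because these shares come from the values that chose the members, they are a description and were not tested.

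**Figure D1:**
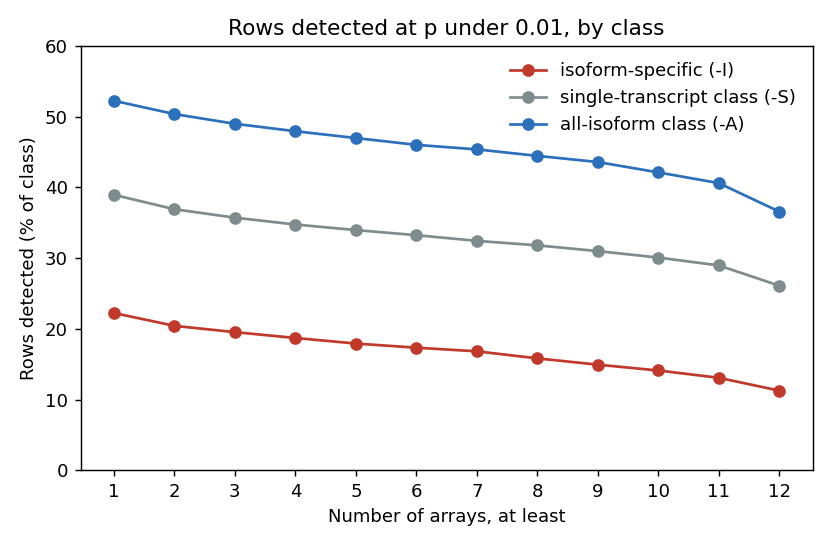
Share of the rows of each class (vertical axis, percent of the class) whose detection p was under 0.01 on the number of arrays on the horizontal axis or more, for isoform-specific (-I, 2914 rows), single-transcript (-S, 21002 rows) and all-isoform (-A, 2182 rows) identifiers. The -I line lies lowest at every number of arrays and ends at 11.3% for 12 arrays, against 26.1% for -S and 36.6% for -A.

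Between 419 and 528 -I rows were detected per array in the nutrient restricted group (491 ± 41.7, mean ± SD, n = 6), or 14.4% to 18.1% of the class. In the control group the number was 445 to 546 (491 ± 47.3, n = 6), or 15.3% to 18.7%. The ranges overlapped over most of their length. Among -I rows missed on a single array, 17 were missed on nutrient restricted 6 alone, 16 on control 1 alone, 13 on nutrient restricted 5 alone and 5 on control 5 alone. On nutrient restricted 1 and nutrient restricted 4 alone 1 row each was missed, and on the other 6 arrays none. By the rule itself, no member was missed on any array.

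The threshold separated rows of like signal. Just inside it, with the highest detection p among the members (0.00989, on nutrient restricted 5 and shared by 6 members), GI_28467002-I had signals of 190 to 358 (median 256) in nutrient restricted animals and 128 to 341 (median 285) in controls. Just outside it, GI_15834618-I reached a detection p of 0.0105 on control 1, a value shared by 5 rows. Its signals were 153 to 218 (median 194) in nutrient restricted animals and 113 to 326 (median 212) in controls.

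After background correction and quantile normalisation, the mean log2 level of the members ran from 6.94 to 15.40 with a median of 8.88 (quartiles 7.96 and 10.31). The -S targets ran from 6.72 to 15.57 with a median of 9.01. Probes bind with different strength, so a higher level of 1 probe does not show a more abundant transcript, and the order of the members by level is that of their signals alone. At the upper end, GI_21396485-I lay at 15.30 to 15.56 (median 15.41) in nutrient restricted animals and 15.25 to 15.61 (median 15.37) in controls, and GI_19924114-I at 15.13 to 15.35 (median 15.31) in nutrient restricted animals and 15.00 to 15.33 (median 15.23) in controls. At the lower end, GI_32526900-I lay at 6.74 to 7.51 (median 6.91) in nutrient restricted animals and 6.66 to 7.28 (median 6.82) in controls. GI_32130532-I lay at 6.76 to 7.25 (median 6.91) in nutrient restricted animals and 6.90 to 7.25 (median 7.04) in controls. In all 4 of these targets the groups overlapped, and their group differences were between -0.09 and 0.11 on the log2 scale.

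The spread between animals was about that of the background. The pooled SD within the groups was 0.256 at the median of the members (quartiles 0.197 and 0.353, range 0.090 to 1.04) and 0.246 at the median of the -S targets, a ratio of 1.04. When the members were divided by level into 5 bins of 65 or 66, their median SD was 0.280, 0.245, 0.275, 0.246 and 0.223 in order of level. For the -S targets in the same bins it was 0.255, 0.264, 0.242, 0.234 and 0.231. The median of the members was above that of the -S targets in 3 of the 5 bins and below it in the other 2.

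**Figure D2:**
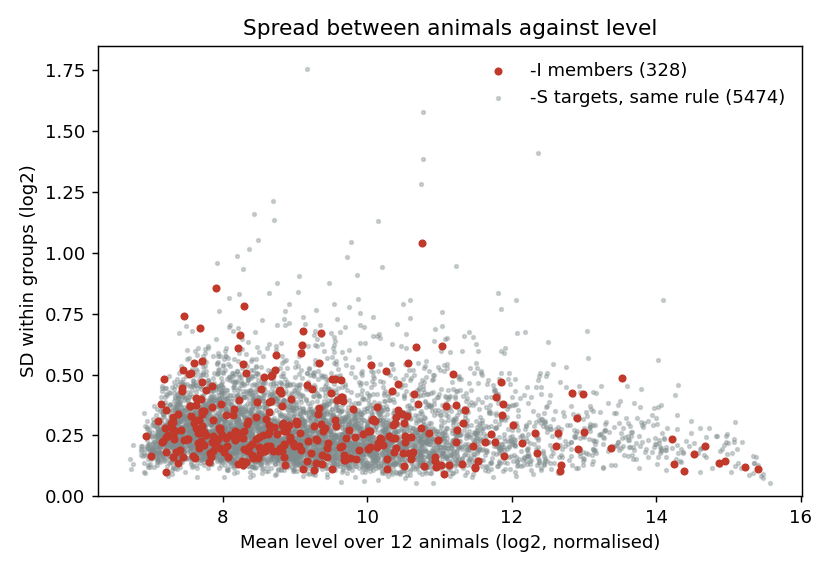
Pooled SD within the groups (vertical axis, log2) against the mean level over the 12 animals (horizontal axis, log2 of the normalised signal) for the 328 members and the 5474 -S targets under the same rule, 1 point per target. The members lie within the cloud of the -S targets, with median SDs of 0.256 and 0.246; the highest member point is GI_15451934-I at 1.04.

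The 2 members with the largest spread varied over several log2 units among the animals. GI_15451934-I (SD 1.04) lay at 9.20 to 11.63 (median 10.81) in nutrient restricted animals and 9.32 to 12.33 (median 10.99) in controls, with the lowest value in nutrient restricted 3 and the highest in control 2. Its groups overlapped almost entirely, and the difference was -0.12. GI_32967312-I (SD 0.855) lay at 7.17 to 10.19 (median 8.07) in nutrient restricted animals and 7.08 to 8.51 (median 7.65) in controls. Its highest value came from nutrient restricted 5 alone. The difference was 0.47 with that animal (SE 0.427, limma adjusted p = 0.721) and 0.057 without it (SE 0.269, limma adjusted p = 0.975).

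The main comparison of the study set fetuses of nutrient restricted mothers against fetuses of control mothers. No member differed between the groups at a limma adjusted p under 0.05, adjusted over all 13244 tested targets, and neither did any other target (0 of 328 members against a background of 0.0%). The smallest adjusted p was 0.475 among the members and 0.245 among all tested targets. At an unadjusted p under 0.05, 24 members (7.32%) were higher in nutrient restricted animals, against 4.18% of all tested targets, and 10 (3.05%) were lower, against 5.31%. In either direction the count was 34 (10.4%), against 9.48%. Without control 1, the dimmest array, 31 members were higher and 13 lower, where 681 of 13030 tested targets were higher and 662 lower. The count of higher members was 40 without nutrient restricted 6, where 814 of 13090 tested targets were higher, against 553 of 13244 with all animals. The count of lower members was 6 without nutrient restricted 4 and 5 without nutrient restricted 5. Of all tested targets 464 of 13032 and 457 of 13062 were then lower, against 703 of 13244 with all animals. The scaling of the arrays moved the split, for the members and for all tested targets. With arrays scaled to equal medians 5 members were higher and 16 lower, where 176 of 13244 tested targets were higher and 1074 lower. With the authors' processed values 8 members were higher and 17 lower, where 367 of 12834 tested targets were higher and 1052 lower. In bulk tissue, fewer cells of a type and less RNA per cell cannot be told apart.

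The differences of the members were small. Their central 95% ran from -0.37 to 0.47 on the log2 scale, with a median SE of 0.146. The 95% confidence interval of the difference lay wholly inside a 2-fold change in either direction for 315 members (96.0%), and inside a 1.5-fold change for 221 (67.4%), against 95% and 69.4% of all tested targets. The measured difference was over 1.5-fold higher for 1 member (background 1.79%) and over 1.5-fold lower for 1 member (background 0.634%). It was over 2-fold for no member, where 0.476% of all tested targets were higher and 0.0302% lower by that much.

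The 4 members with the smallest p in each direction, 2 higher and 2 lower, were picked by their values in these data, and all had a limma adjusted p of 0.475. GI_19743870-I, a bright probe, lay at 12.88 to 13.83 (median 13.27) in nutrient restricted animals and at 12.44 to 12.94 (median 12.72) in controls. Of the nutrient restricted animals 5 of 6 were above every control. The difference was 0.57 (SE 0.149, 1.48-fold, limma unadjusted p = 0.00199). GI_33946279-I, a probe near the lower end of the members, lay at 7.30 to 7.77 (median 7.52) in nutrient restricted animals and at 6.89 to 7.29 (median 7.11) in controls. All 6 nutrient restricted animals were above every control, and the difference was 0.41 (SE 0.109, 1.33-fold, limma unadjusted p = 0.00206).

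In the other direction, GI_16905521-I lay at 7.07 to 7.74 (median 7.61) in nutrient restricted animals and at 7.78 to 8.39 (median 7.99) in controls. All 6 nutrient restricted animals were below every control, and the difference was -0.55 (SE 0.150, 1.46-fold, limma unadjusted p = 0.00267). GI_38372934-I lay at 8.60 to 9.30 (median 9.07) in nutrient restricted animals and at 9.14 to 9.71 (median 9.55) in controls. The groups overlapped through the lowest control, control 5, and 3 of 6 nutrient restricted animals were below every control. The difference was -0.48 (SE 0.137, 1.39-fold, limma unadjusted p = 0.00366). GI_33946279-I and GI_16905521-I were the 2 members whose groups did not overlap, where 0.521% of all tested targets had groups that did not. Each of the 4 targets kept its direction under every alternative of the processing, some of which could change only the p, and their adjusted p ranged from 0.226 to 0.761 over these.

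**Figure D3:**
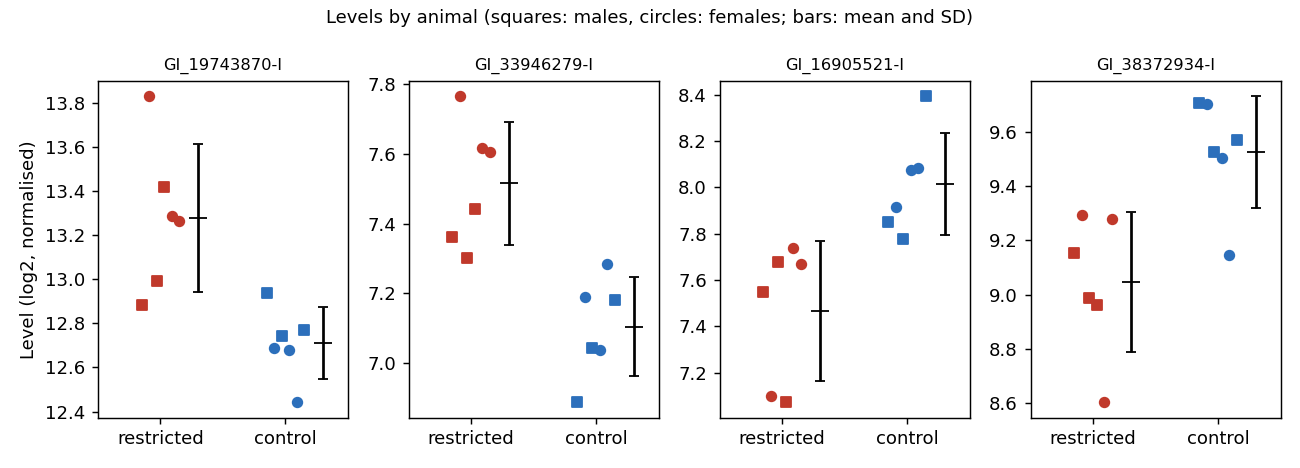
Level of the 4 members with the smallest unadjusted p (vertical axes, log2 of the normalised signal, each panel with its own range that does not start at 0) in each nutrient restricted and control animal; squares are males, circles females, and the bars give the mean and SD of each group (n = 6). The groups do not overlap for GI_33946279-I (7.30 to 7.77 and 6.89 to 7.29) and GI_16905521-I (7.07 to 7.74 and 7.78 to 8.39), and overlap through 1 animal of 1 group for the others.

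The members leaned towards higher values in nutrient restricted animals. The difference was positive for 212 of 328 members (64.6%), with a median of 0.08, whereas it was positive for 49.3% of all tested targets, with a median of -0.004. Of the -S targets under the same rule 2519 of 5474 (46.0%) were positive, with a median of -0.02, and of the -A targets under the same rule 376 of 798 (47.1%), with a median of -0.02. The 46 tested -A targets with the same GI number as a member, described below, were however positive in 31 cases, with a median of 0.10. The -I targets that entered the fit without being members, 515 in number, were positive in 337 cases (65.4%), with a median of 0.07. By level, from the dimmest to the brightest of the 5 bins, 60.6%, 72.3%, 60.6%, 70.8% and 59.1% of the members were positive, against 46.3%, 44.8%, 45.9%, 45.2% and 48.1% of the -S targets. The share was higher for the members than for the -S targets in each bin of level. No p was computed for the list, since its members were chosen with results of these data known.

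**Figure D4:**
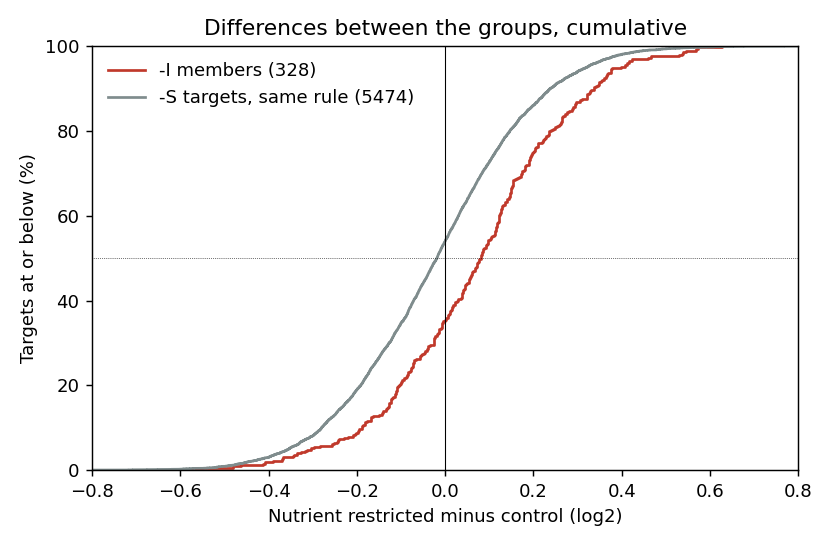
Cumulative share of targets (vertical axis, percent) at or below a given nutrient restricted minus control difference (horizontal axis, log2) for the 328 members and the 5474 -S targets under the same rule; the solid vertical line marks 0 and the dotted line 50%. The line of the members lies to the right, with a median of 0.08 against -0.02, and differences beyond the ends of the axis are not drawn.

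The sign of the median difference of the members depended on how the arrays were scaled. A factor common to a whole array cancels by construction when the -S targets are subtracted. With arrays scaled to equal medians the median difference was -0.024 for the members, -0.123 for the -S targets and -0.076 for all tested targets, and 44.5% of the members and 26.6% of the -S targets were positive. With the authors' processed values the medians were -0.006, -0.110 and -0.069, and the shares 49.1% and 29.6%. The median of the members less that of the -S targets was 0.10 in the main setting and between 0.081 and 0.115 over its alternatives, several of which (the filter, the covariates, the moderation) could not change it. The lowest of these values came without nutrient restricted 5 and the highest without nutrient restricted 3.

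The same shift was also laid out by animal, from the same values, so that it is no separate evidence for it. For each target the level was centred on its mean over the animals, and the median over the -S targets was subtracted from the median over the members. This offset was -0.017, 0.061, 0.037, 0.089, 0.122 and 0.013 in nutrient restricted 1 to 6. In control 1 to 6 it was -0.099, -0.043, -0.048, -0.029, -0.049 and -0.063. All nutrient restricted animals lay above all controls, though the gap between the lowest nutrient restricted animal, -0.017, and the highest control, -0.029, was small. The mean was 0.051 ± 0.051 in nutrient restricted animals and -0.055 ± 0.024 in controls (SD, n = 6 each), a difference of 0.106. Since all nutrient restricted animals lay above all controls, the groups lay apart within males and within females by construction. Of the alternatives that could change the offset, the groups lay apart with the signals quantile normalised without background correction, with equal medians and with the authors' values. They also lay apart without each animal in turn, which could change only through the normalisation and centring of the animals left. The groups overlapped with 1 alternative: with members taken at a detection p under 0.05, the lowest nutrient restricted animal was at -0.022 and the highest control at -0.015. No offset was computed for the -A targets or for other sets of targets, so how often such a gap arises is not known. The part that array order had in this offset cannot be told apart from that of the condition.

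**Figure D5:**
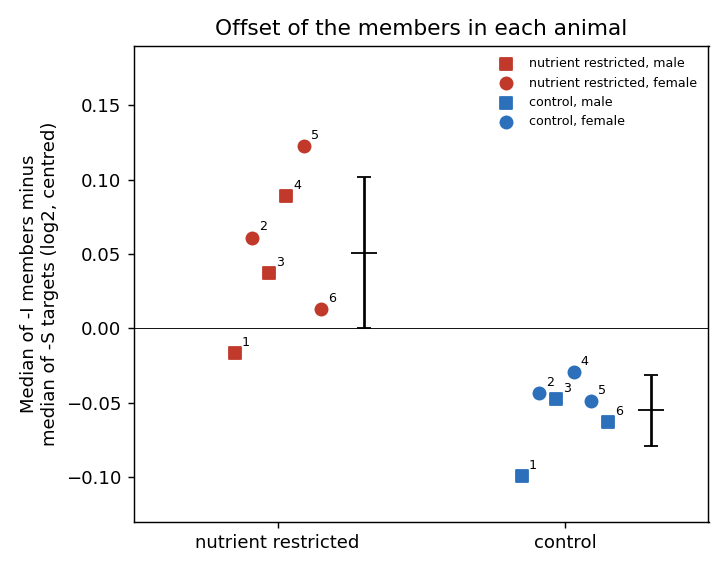
Offset of the members in each animal (vertical axis, log2: median of the members minus median of the -S targets, after centring each target on its mean), with nutrient restricted animals on the left and controls on the right; squares are males, circles females, numbers are replicates, and the bars give mean and SD (n = 6). The nutrient restricted animals lie between -0.017 and 0.122 and the controls between -0.099 and -0.029.

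Within each sex, no member passed a limma adjusted p under 0.05 between nutrient restricted and control animals (3 against 3), nor did any other target (0.0% of the 13244 in males and 0.0% in females). In males 4 members were higher at an unadjusted p under 0.05 (background 2.0%) and 5 were lower (background 2.61%), 9 in all (2.74%, background 4.61%), and the smallest adjusted p was 0.867. The counts ran from 0 to 11 higher and 3 to 12 lower when 1 animal was left out, and control 3, nutrient restricted 3, 4, 5 and 6 each moved 1 or both by over 1.5 times. In females 17 were higher (background 3.57%) and 7 lower (background 2.62%), 24 in all (7.32%, background 6.19%), with a smallest adjusted p of 0.404. Those counts ran from 10 to 40 higher and 3 to 12 lower, and control 2, 4 and 5 and nutrient restricted 2, 5 and 6 each moved 1 or both by over 1.5 times. The scaling moved these counts too. In males they were 2 higher and 1 lower with equal medians, and 0 higher and 13 lower with the authors' values. In females they were 4 higher and 21 lower with equal medians, which turns the split round, and 13 higher and 5 lower with the authors' values. Within each sex, the share of all tested targets is not given here for any alternative. Over both sexes together, 176 of 13244 tested targets were higher and 1074 lower with equal medians. Array weights gave 12 higher and 5 lower in males, and 31 higher and 13 lower in females. Without a detection filter 16 were higher and 8 lower in males, and with the replicate block 31 were higher and 10 lower in females. The difference was positive for 196 members (59.8%) in females, against 48.1% of all tested targets and 47.4% of the -S targets, and for 210 (64.0%) in males, against 49.3% and 45.7%.

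Whether the effect of the condition differed in females from that in males was tested directly. It passed an adjusted p under 0.05 for no member and no other target (background 0.0%, smallest limma adjusted p 0.999). At an unadjusted p under 0.05, the effect was higher in females for 4 members (background 1.48%) and lower for 3 (background 1.24%), 7 in all (2.13%, background 2.72%). Those counts ran from 3 to 12 higher and 1 to 8 lower without 1 animal, with control 1, 3, 5 and 6 and nutrient restricted 2, 4 and 5 each moving 1 or both by over 1.5 times. With equal medians 1 member was higher and 14 lower, and with the authors' values 8 were higher and 1 lower, so the split turned in opposite directions. For the alternatives of this comparison, the share of all tested targets is not given here. The counts were 11 and 5 without a detection filter, 9 and 4 with the replicate block, and 8 and 2 with array weights. For GI_19743870-I the difference was 0.86 in females and 0.28 in males, and the difference of these effects did not pass (limma unadjusted p = 0.0592, adjusted p = 0.999).

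Between the sexes themselves, no member differed at a limma adjusted p under 0.05, against 0.0453% of all tested targets (6 of 13244). At an unadjusted p under 0.05, 10 members were higher in females (background 1.46%) and 2 were lower (background 1.8%), 12 in all (3.66%, background 3.27%). Those counts ran from 3 to 16 higher and 1 to 9 lower without 1 animal, with control 1, 2, 3 and 5 and nutrient restricted 1, 2 and 3 each moving 1 or both by over 1.5 times. The lean towards females was not seen with equal medians (2 higher, 4 lower) or with the replicate block (3 higher, 5 lower), and was 4 to 3 with the authors' values. The counts were 23 and 10 with array weights, and 19 and 3 without a detection filter. Shares of all tested targets are not given here for the alternatives of this comparison. No member had female and male values that did not overlap, where 0.166% of all tested targets did.

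A shift in isoform use would show as a change in the ratio of probes of 1 gene. The files do not say which -I rows belong to 1 gene, and rows with GI numbers that differ by 1 or 2 were taken as neighbouring records. Such gaps also separated 43.2% of the -S numbers, against 28.4% of the -I numbers, so that they do not show a shared gene. Of 810 neighbouring pairs of -I rows, 22 held 2 members, 136 held 1 and 652 held none. The ratio of the pair, the difference of both log2 levels within an animal, was fitted for the 80 pairs in which both rows could be tested. The size of a ratio also reflects how strongly each probe binds, so it was compared only between groups. None passed a limma adjusted p under 0.05 (background 0.0%, smallest 0.467 over all pairs and 0.608 over pairs of members). At an unadjusted p under 0.05, 1 of the 22 pairs of members passed, against 6.25% of the pairs tested. The difference of the ratio was positive in 14 of the 22, with a median of 0.03.

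The ratio of GI_22212926-I to GI_22212924-I was 2.21 to 3.09 (median 2.43) on the log2 scale in nutrient restricted animals and 1.20 to 2.49 (median 2.06) in controls. Of the nutrient restricted animals 2 of 6 were above every control, and the difference was 0.57 (SE 0.232, limma adjusted p = 0.608). The ratio of GI_19743893-I to GI_19743892-I was 3.59 to 5.63 (median 4.54) in nutrient restricted animals and 3.28 to 4.49 (median 4.09) in controls. Its difference was 0.52 (SE 0.325, limma adjusted p = 0.740), and 3 of 6 nutrient restricted animals were above every control. In both pairs the groups overlapped.

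A closer link was found after the data had been seen: 732 -I rows carry the same GI number as an -A row, so that 1 probe is listed as specific to an isoform and the other as shared for the same sequence record. Of the members, 59 had such a partner. The partner was detected on all arrays for 25 of them (42.4%), on some for 19 and on none for 15. Seen from the other side, 205 -A rows with an -I partner were detected on all arrays. The -I row of the same record was detected on all arrays for 25 of these (12.2%) and on none for 157 (76.6%).

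The ratio of the -I to the -A target of 1 record could be fitted for 112 pairs, 46 of them with a member. None passed a limma adjusted p under 0.05 (background 0.0%, smallest 0.207 over all pairs and 0.635 over pairs with a member). At an unadjusted p under 0.05, 1 of the 46 passed, against 4.46% of the pairs tested. Without nutrient restricted 3, 1 pair without a member passed the adjusted threshold. The differences of the 46 ratios ran from -1.14 to 0.42 with a median of 0.004 and a median SE of 0.215, and 23 were positive. In these 46 pairs the members themselves were positive in 31 cases, with a median of 0.10, and their -A partners also in 31, with a median of 0.10; member and partner had the same sign in 32 pairs.

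The pair with the smallest p was GI_13787213. The log2 ratio of its -I to its -A target was 0.85 to 1.39 (median 1.18) in nutrient restricted animals and 1.37 to 2.59 (median 1.49) in controls, and 5 of 6 nutrient restricted animals were below every control. The difference was -0.56 (SE 0.209, limma unadjusted p = 0.0166, adjusted p = 0.635), made up of -0.46 for the -I target and 0.10 for the -A target. The next pair, GI_27886536, had ratios of 1.48 to 2.17 (median 1.66) in nutrient restricted animals and 1.74 to 2.72 (median 2.08) in controls. Its difference was -0.39 (limma adjusted p = 0.859), of which -0.008 came from the -I target and 0.38 from the -A target.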

How the data were processed

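The members and the lists were chosen with earlier results of these data known. Per the labels' protocols, Trizol extraction and an RNeasy clean-up preceded biotin labelling with the Ambion MessageAmp kit, and GenomeStudio 1.9.0 is named in the submitters' processing notes. The scanner table holds, per the file headers, a deposited average bead intensity per target and array (not normalised, linear, all above 0) and a deposited detection p-value. The authors' processed values were deposited as a table on a log2 scale, as a match to the scanner values showed: 16589 of 22148 rows and all 328 members matched within 0.01, and the column medians lay between -0.00046 and -1e-05. The sources used here do not say how those rows were chosen.

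Background correction (normexp, from the detection p-values, with an offset of 16) and quantile normalisation used neqc (limma 3.58.1, R 4.3.3). A target was tested if at least 6 arrays gave it a detection p under 0.05. Of each of 7 repeated identifiers the brighter row was kept, which left 13244 targets, 328 of them members and 5474 of them -S targets under the same rule. lmFit and eBayes were used with Benjamini-Hochberg adjustment over all tested targets, with all 12 arrays and no covariate for the comparison of the conditions, and 4 group means for the comparisons that involve sex. Ratios were fitted in the same way over the pairs tested. All p-values are two-sided. The fits were tested on simulated data.

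The rule for naming took the 2 members per direction with the smallest unadjusted p between the conditions, the 2 highest and the 2 lowest by level, the 2 with the largest SD, the rows on either side of the detection threshold, and the 2 neighbouring pairs with the smallest p. The -I to -A pairs (named by the same rule), the counts of positive differences and the offset from the -S targets were added after the data were seen. The files hold no slide number or scan date. As alternatives, the scaling, background correction, filters, covariates, array weights and moderation were changed, the authors' values were used, and each animal was left out. Python 3.11.15 (pandas 2.3.3, numpy 2.4.6, matplotlib 3.10.9, scipy 1.17.1) served for joins and plots.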

Additional observations from a re-analysis of the deposited data

Results flagged for a closer look

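In GI_32967312-I the value of nutrient restricted 5, 10.19 on the log2 scale, lay far above the other 5 nutrient restricted animals, the next of which was at 8.13. In GI_38372934-I the value of control 5, 9.14, lay far below the other 5 controls, the next of which was at 9.50, and without control 5 the difference between the groups was -0.55 (limma adjusted p = 0.392). Both values were picked out by a gap to the next animal that was larger, as a share of the range of their group, than Dixon's 95% critical value. In all, 38 sets of 6 animals were examined and 2 had such a gap, where chance alone gives about 5% of sets not chosen by their values. GI_32967312-I was named for its large SD and GI_38372934-I for its small p, so that share does not hold as it stands for such sets.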

How the results depend on the processing

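The number of members depended on the detection threshold, 549 at a detection p under 0.05 and 138 at a detection p under 0.001, and lay between 328 and 345 when 1 animal was left out. No member passed an adjusted p under 0.05 in any comparison of the conditions, the sexes or the ratios under any alternative. Members higher at an unadjusted p under 0.05 numbered 5 with equal medians and 8 with the authors' values, and 16 to 40 without 1 animal. Members lower numbered 16 with equal medians and 17 with the authors' values, and 5 to 14 without 1 animal. All tested targets moved too. With equal medians 176 of 13244 were higher and 1074 lower, and with the authors' values 367 and 1052 of 12834. Without 1 animal 365 to 814 tested targets were higher and 457 to 951 lower. With members taken at a detection p under 0.05, 20 of 549 were lower, against 10 of 328 in the main setting. The median difference of the members was negative with equal medians (-0.024) and with the authors' values (-0.0062), and positive under the others, several of which (the covariates, the filter, the moderation) could not change it. With members taken at a detection p under 0.05, 356 of 549 differences were positive, a share of 64.8% against 64.6% in the main setting. The median SD of the members was 0.313 with equal medians. The cause of these changes was not tested. Targets near background have a compressed fold change, which limits the dimmest members.

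Replicate numbers are shared by the groups. With the replicate number as a block, 24 members were higher and 11 were lower at an unadjusted p under 0.05, and 0 passed the adjusted threshold. The correlation of same-numbered animals ran from -0.216 to 0.581, 2 of 6 correlated best with their own number, and 4 of 6 pairs were of the same sex, so the numbers were not taken as pairs.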

Other observations

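No -I row was detected on all 6 arrays of 1 group and on no array of the other. On at least 5 control arrays and at most 1 nutrient restricted array 2 -I rows were detected, and none the other way round. Of the 320 -I rows detected on 1 to 11 arrays, 128 were detected on more nutrient restricted than control arrays, 136 on fewer and 56 on equal numbers. The same counts were not made for the other rows of the array, so they cannot be read as particular to the -I rows.

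The median distance of the members from their own mean within the animal's group was largest in nutrient restricted 6 (0.246), against 0.209 for the -S targets in the same animal. In control 1 it was 0.235, against 0.227 for the -S targets. It was smallest in control 4, at 0.106, against 0.112.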
